A study of Homo sapiens with 8 samples.

Results

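The RAB genes, which encode the largest family of small GTPases of membrane traffic, were followed in the Ago2-RIP-Chip data of ST486 cells. The members were all probes, control spots left out, whose RefSeq accession maps to a symbol made of RAB, a number up to 43 and at most 1 letter, so that genes of RAB-interacting proteins stayed out. The array held 92 such probes for 58 RAB genes, of 16557 genes and 41000 probes. After the filters on detection and on the difference between dyes, 48 probes of 33 RAB genes were kept, among 15529 probes in all. ST486 is a cell line from Burkitt lymphoma, a B-cell malignancy. Both groups carried the vector MXW-PGK-IRES-GFP and were sorted for GFP. In EV-ST486 cells the vector was empty, and in miR-155-ST486 cells it expressed ectopic miR-155. They are called EV and miR-155 cells here. From each, RNA of the whole lysate (total, T) and RNA pulled down with Ago2 (IP) was labelled once with Cy3 and once with Cy5, and each array received the IP and the total RNA of one vector, in either dye orientation. These 4 RNA samples, 4 arrays and 8 channels give n = 1 per condition. The 2 labellings are technical repeats, so no test was possible, and the difference between dye orientations is the only error given.

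Rab proteins switch between a GDP-bound and a GTP-bound form, and each marks a membrane of its own, such as the endoplasmic reticulum, the Golgi apparatus, an endosome or a secretory granule. In the GTP-bound form they recruit effectors that move, tether and fuse vesicles. In B cells this traffic carries the antigen receptor into endosomes, loads MHC class II and exports antibody. Ago2 is the protein that holds a miRNA on its target transcripts, so the IP/T ratio of a probe gives its signal in Ago2-bound RNA relative to total RNA. The ratio is relative to all probes of the fraction, and in RNA of a bulk culture fewer cells with a transcript and less transcript per cell cannot be told apart. The miRNA that differs between the cells is shown here, as listed by RefSeq, because every miR-155/EV ratio refers to it. Capitals mark the seed, bases 2 to 8, through which a miRNA pairs with its targets, and the mature strand lies at chr21:25573983-25574006 on the plus strand of GRCh38.p14.
miR-155-5p: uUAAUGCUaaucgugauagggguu

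Of 8 genes typical of B cells, 7 were detected in all 4 channels of total RNA, while the 1 probe of PAX5, a B-cell transcription factor, was detected in none. Of 14 genes typical of other cells, 13 were on the array, 9 of them were detected in no channel of total RNA and 0 in all 4. Each of the 2 slides held the arrays of 1 vector, so slide and vector cannot be told apart in any comparison of miR-155 with EV cells. The level of miR-155 itself was not analysed here. Detection differed between channels, from 14094 probes in EV IP RNA labelled with Cy5 to 22161 in EV total RNA labelled with Cy3.

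RAB transcripts with at least 2-fold more signal in Ago2-IP than total RNA in both vectors included those of RAB1A, RAB2B, RAB5B and RAB23. For RAB18 and RAB22A this held on 1 of 2 kept probes. The mean RAB22A ratio over both probes was 1.997 in EV cells, just under 2, and 2.10 in miR-155 cells. The IP/T ratio was above 1 for 31 of the 48 RAB probes in EV cells (64.6%, against 41.8% of all kept probes) and for 30 in miR-155 cells (62.5%, against 40.6%). In EV cells 14 of the 48 RAB probes (29.2%), from 10 genes, had an IP/T ratio of 2 or more, the ratio taken for Ago2 enrichment, where the share among all kept probes was 12.1%. In miR-155 cells 12 RAB probes (25%), from 8 genes, reached it, against 12.2% of all kept probes. These counts include the 2 probes of RAB12, whose total RNA was mostly under background and whose IP/T ratio has a lower bound under 2 where it was detected in no labelling. Of the 46 other RAB probes 12 passed in EV and 10 in miR-155 cells. With RAB12 counted, 11 of the 48 probes, from 8 genes, passed in both vectors, against 1585 of all 15529 kept probes. On each of the 4 arrays 10 RAB probes of 7 genes did so, a count not taken over all kept probes. With normexp background correction in place of the processed signals, 8 of the 14 probes in EV cells still passed after quantile and 5 after loess normalization, and those of RAB2B, RAB5B, RAB5C, RAB14 and RAB34 passed under neither. In miR-155 cells 8 of the 12 probes still passed after quantile and 7 after loess normalization. There those of RAB2B and RAB5B and 1 probe each of RAB5C and RAB12 passed under neither. How many of all kept probes lost the call with normexp is not given here. An IP/T ratio of at most 0.5 was seen for 2 RAB probes in EV cells, where 10.0% of all kept probes had one, and for 1 RAB probe in miR-155 cells, where 9.83% had one. None of these 3 low ratios lay under 0.5 in both dye orientations. Of all kept probes with such a ratio, 788 of 1557 in EV and 916 of 1527 in miR-155 cells were low in both. The median IP/T ratio over the RAB probes was 1.21 in EV and 1.28 in miR-155 cells, beside 0.900 and 0.882 over all kept probes. It was 1.15 and 1.21 in the dye orientations of EV cells, beside 0.913 and 0.909 over all kept probes. The ratio was above 1 on all 4 arrays for 25 RAB probes (52.1%, against 26.3% of all kept probes) and below 1 on all 4 arrays for 8 (16.7%, against 39.3%). Among the 32 RAB probes detected in all 8 channels, 9 (28.1%) reached 2 in EV cells, beside 11.5% of the 12072 probes of this kind.

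**Figure D1:**
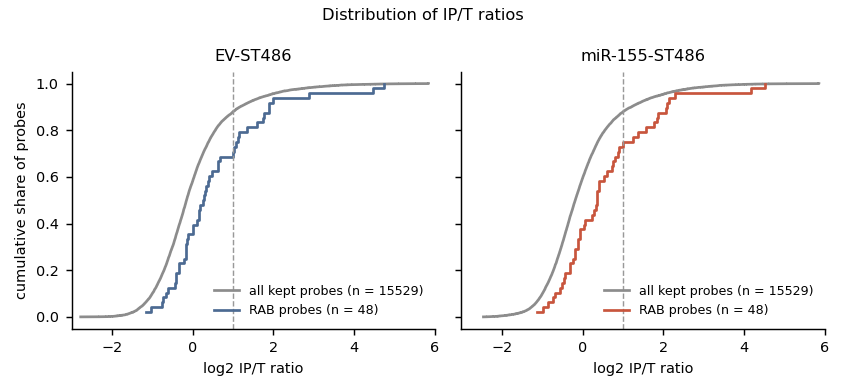
Cumulative share of probes (y axis) up to each log2 IP/T ratio (x axis) for the 48 RAB probes (coloured) and all 15529 kept probes (grey), in EV cells on the left and miR-155 cells on the right, with a dashed line at an IP/T ratio of 2. The RAB curve lies to the right of the grey curve over most of its range, with medians of 1.21 against 0.900 in EV and 1.28 against 0.882 in miR-155 cells.

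The ratios of single RAB probes were alike in both vectors. Across the 48 probes Pearson's r of log2 IP/T between EV and miR-155 cells was 0.95, and 0.92 across the 46 probes left without RAB12. This is a description across probes, some of which share a gene, and the channels share the normalization. Between the dye orientations r was 0.89 in EV and 0.94 in miR-155 cells, and the orientations differed by a median of 0.44 and 0.28 on the log2 scale.

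**Figure D2:**
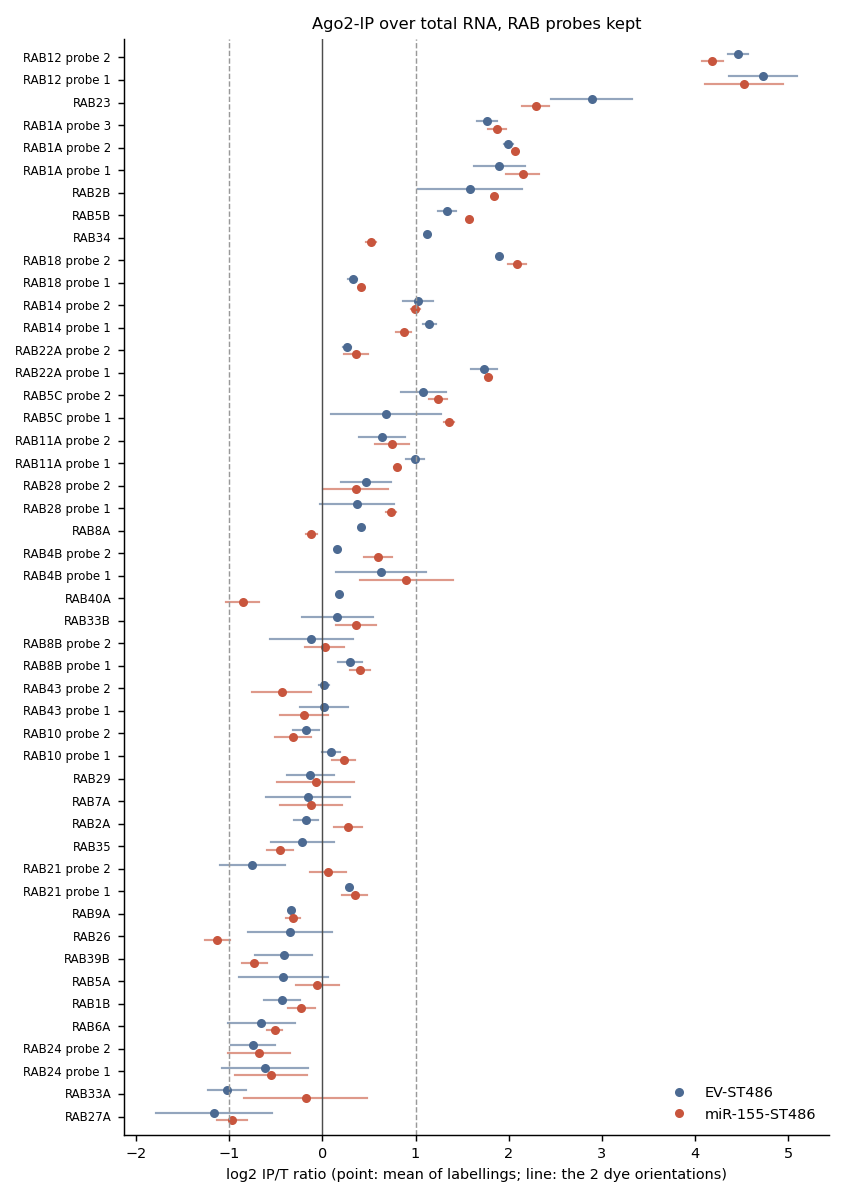
Log2 IP/T ratio (x axis) of each of the 48 kept RAB probes (y axis, probes of a gene together and numbered) in EV (blue) and miR-155 cells (red). Points are means of the labellings, lines join the 2 dye orientations and dashed lines mark ratios of 0.5 and 2. RAB12, at the top, was under background in total RNA in 3 of 4 channels for 1 probe and in all 4 for the other, so its points rest on total signals under background, and RAB27A lies at the bottom.

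Among the RAB genes of the endoplasmic reticulum and the Golgi apparatus, 14 probes of 10 genes were kept, and 5 probes of 3 genes, RAB1A, RAB2B and RAB18, had an IP/T ratio of 2 or more in both vectors. RAB1A, which governs transport from the endoplasmic reticulum to the Golgi apparatus, was measured by 3 probes. Probe 2 (A_23_P382148) gave a normalized signal, in arbitrary units, of 1454 (Cy3) and 1208 (Cy5) in total and 4973 and 5621 in IP RNA in EV cells, and of 1746 (Cy3) and 1763 (Cy5) in total and 7409 and 7279 in IP RNA in miR-155 cells. Its IP channels thus lay above its total channels in both vectors and both dyes, with IP/T ratios of 3.99 and 4.19. Probe 1 (A_23_P250283) had signals of 1470.2 (Cy3) and 748 (Cy5) in total and 3371 and 4541 in IP RNA in EV cells and of 1115 (Cy3) and 1411 (Cy5) in total and 5547 and 5572 in IP RNA in miR-155 cells. Probe 3 (A_24_P251351) had signals of 678 (Cy3) and 616 (Cy5) in total and 2260.1 and 2145 in IP RNA in EV cells and of 636 (Cy3) and 608 (Cy5) in total and 2392 and 2183 in IP RNA in miR-155 cells. For all 3 RAB1A probes the lowest IP channel was higher than the highest total channel. Their IP/T ratios of 3.41 to 3.99 in EV and 3.67 to 4.43 in miR-155 cells were at most 1.21-fold apart between probes.

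RAB1B, the near relative that acts at the same step, did not share this. Its signal was 2579 (Cy3) and 3949 (Cy5) in total and 2549.9 and 2183 in IP RNA in EV cells and 2202 (Cy3) and 1706 (Cy5) in total and 1614 and 1701 in IP RNA in miR-155 cells. The IP/T ratio was 0.739 in EV (0.846 and 0.646 in the dye orientations) and 0.855 in miR-155 cells (0.773 and 0.946), below 1 on all 4 arrays.

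The RAB2 proteins, which act between the Golgi apparatus and the endoplasmic reticulum, also differed, with RAB2B past the threshold and RAB2A near 1. RAB2B had signals of 64.8 (Cy3) and 90.4 (Cy5) in total and 184 and 287 in IP RNA in EV cells and of 60.5 (Cy3) and 58.4 (Cy5) in total and 211 and 216 in IP RNA in miR-155 cells. It was detected in 1 of 2 channels of EV total and of EV IP RNA, and in all channels of miR-155 cells. Its IP/T ratio was 3.0 in EV (4.42 and 2.03) and 3.59 in miR-155 cells (3.56 and 3.61), with every IP channel above every total channel. RAB2A had 2624 (Cy3) and 2495 (Cy5) in total and 2411 and 2132 in IP RNA in EV cells and 2210.2 (Cy3) and 2010.3 (Cy5) in total and 2707 and 2411 in IP RNA in miR-155 cells. Its IP/T ratio lay near 1, at 0.886 and 1.21.

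RAB18, found on lipid droplets and the endoplasmic reticulum, had 2 kept probes that disagreed. Probe 2 (A_24_P132787) had signals of 664 (Cy3) and 610.0 (Cy5) in total and 2239 and 2518 in IP RNA in EV cells and of 612 (Cy3) and 725 (Cy5) in total and 2892 and 2789 in IP RNA in miR-155 cells, IP/T ratios of 3.73 and 4.27. Probe 1 (A_23_P138376) had signals of 3300.0 (Cy3) and 3073 (Cy5) in total and 3718 and 4275 in IP RNA in EV cells and of 2688 (Cy3) and 2942 (Cy5) in total and 3969 and 3520.1 in IP RNA in miR-155 cells, and its ratios were 1.25 and 1.33. Both probes were detected in all 8 channels and lay above 1 on all 4 arrays, but 2.98-fold apart in EV and 3.21-fold apart in miR-155 cells.

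The other RAB genes of the endoplasmic reticulum and the Golgi apparatus had no call in both vectors. The median probe of the group in EV cells, a probe of the Golgi RAB43 (A_32_P86318), had IP/T ratios of 1.01 and 0.739. RAB6A, which acts in retrograde traffic through the Golgi apparatus, was at 0.635 and 0.701, below 1 on all 4 arrays. RAB39B, a gene mutated in X-linked intellectual disability, was at 0.750 and 0.603. The lowest ratio of the group in EV cells belonged to RAB33A, a Golgi-linked relative of the autophagy factor RAB33B. Its signals were 93.6 (Cy3) and 123 (Cy5) in total and 69.8 and 40.1 in IP RNA in EV and 64.7 (Cy3) and 87.6 (Cy5) in total and 48.9 and 90.5 in IP RNA in miR-155 cells, for ratios of 0.492 and 0.884. RAB33A was detected in 5 of 8 channels, and its channels overlapped between IP and total RNA in miR-155 cells.

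**Figure D3:**
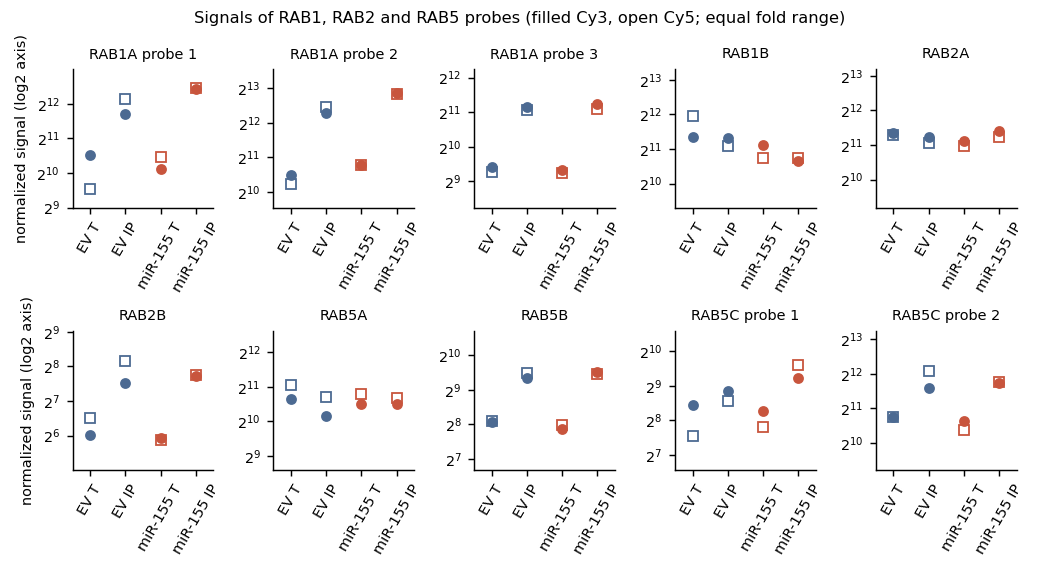
Normalized signal (arbitrary units, log2 axis, the same fold range in each panel) of the RAB1, RAB2 and RAB5 probes in total (T) and IP RNA of EV (EV, blue) and miR-155 cells (miR-155, red), with filled circles for Cy3 and open squares for Cy5. IP signals stand above total signals in every RAB1A, RAB2B and RAB5B panel, while RAB1B and RAB5A show no such step. RAB2A shows none in EV cells and a small one in miR-155 cells.

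Among the RAB genes of endocytosis and the early endosome, 8 probes of 5 genes were kept, 3 of which had an IP/T ratio of 2 or more in both vectors. They belong to RAB22A, RAB5B and RAB5C. RAB5A, RAB5B and RAB5C share the control of early endosome fusion. RAB5B had signals of 266 (Cy3) and 274 (Cy5) in total and 649.7 and 721 in IP RNA in EV cells and of 231 (Cy3) and 252 (Cy5) in total and 735 and 704 in IP RNA in miR-155 cells. Total and IP channels were well apart, with ratios of 2.53 (2.71 and 2.37 in the dye orientations) and 2.98 (3.04 and 2.92). RAB5C probe 2 (A_23_P107214) had 1721 (Cy3) and 1725 (Cy5) in total and 3094 and 4307 in IP RNA in EV cells and 1578 (Cy3) and 1336 (Cy5) in total and 3376 and 3479 in IP RNA in miR-155 cells, with IP/T ratios of 2.12 and 2.36. RAB5C probe 1 (A_23_P107211) had 352 (Cy3) and 189 (Cy5) in total and 458 and 375 in IP RNA in EV cells and 311 (Cy3) and 225 (Cy5) in total and 601 and 771 in IP RNA in miR-155 cells. It reached 2 only in miR-155 cells, at 2.57, and its EV ratio of 1.61 was the geometric mean of 1.07 and 2.43 in the dye orientations. RAB5A had 1607 (Cy3) and 2125 (Cy5) in total and 1143 and 1673 in IP RNA in EV cells and 1466 (Cy3) and 1769 (Cy5) in total and 1458 and 1655 in IP RNA in miR-155 cells. Its IP and total channels overlapped in both vectors, with ratios of 0.748 and 0.964.

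RAB22A, another early endosomal GTPase, again had 2 probes that disagreed. Probe 1 (A_23_P79889), detected in all 8 channels, had signals of 1565 (Cy3) and 1767 (Cy5) in total and 5354 and 5719.8 in IP RNA in EV cells and of 1394 (Cy3) and 1501 (Cy5) in total and 5014 and 4924 in IP RNA in miR-155 cells. The IP channels were all well above the total channels, for ratios of 3.33 and 3.44. Probe 2 (A_32_P179258) had 112 (Cy3) and 134 (Cy5) in total and 156 and 138 in IP RNA in EV cells and 88.8 (Cy3) and 82.5 (Cy5) in total and 116 and 104 in IP RNA in miR-155 cells, with ratios of 1.2 and 1.28. It was detected in 5 channels, and the probes lay 2.78-fold apart in EV cells. RAB21, which takes integrins into endosomes, had ratios of 1.22 and 1.27 on probe 1 (A_23_P128166), the median probe of the group in EV cells. Probe 2 (A_24_P247749), detected in 5 channels, had ratios of 0.594 and 1.04, so the RAB21 probes were 2.06-fold apart in EV and 1.22-fold apart in miR-155 cells.

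Disagreement between probes of a gene was not particular to RAB genes. Of 14 RAB genes with more than 1 kept probe, 3 (RAB18, RAB21 and RAB22A) had probes over 2-fold apart in a vector, where 22.8% of the 2150 genes of this kind did. The median distance between probes was 1.24-fold for RAB genes and 1.40-fold for all these genes in EV cells.

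RAB genes of recycling endosomes gave 7 kept probes of 4 genes, and their median IP/T ratio of 1.56 in EV and 1.74 in miR-155 cells was the highest of the role groups in EV cells. No probe reached 2 in both vectors. Both probes of RAB14, which acts between the Golgi apparatus and endosomes, did so in EV cells. Probe 1 (A_23_P216984) had signals of 606 (Cy3) and 609.7 (Cy5) in total and 1285 and 1409 in IP RNA in EV cells and of 689.8 (Cy3) and 747 (Cy5) in total and 1445 and 1194 in IP RNA in miR-155 cells, for ratios of 2.21 and 1.83. Probe 2 (A_24_P4272) had ratios of 2.04 and, just under the threshold, 2.00. The IP channels of both were above the total channels throughout. RAB11A, the GTPase of the perinuclear recycling compartment, had ratios of 1.99 and 1.74 on probe 1 (A_23_P77145), and of 1.56 and 1.68 on probe 2 (A_24_P124957), which was the median probe of the group in EV cells. RAB11A thus stayed under 2 in both vectors. At the low end stood RAB35, a GTPase of fast recycling and cytokinesis, with ratios of 0.861 and 0.729.

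The RAB genes of late endosomes, lysosomes and autophagy had 7 kept probes of 5 genes, and those of RAB12, which steers transferrin receptor to lysosomes, gave signals in IP RNA but mostly none above background in total RNA. RAB12 probe 1 (A_23_P119023) had signals of 27.7 (Cy3) and 21.5 (Cy5) in total and 736 and 568 in IP RNA in EV cells and of 23.4 (Cy3) and 14.6 (Cy5) in total and 449 and 404 in IP RNA in miR-155 cells. Probe 2 (A_24_P53353) had 16.5 (Cy3) and 15.2 (Cy5) in total and 362 and 337 in IP RNA in EV cells and 9.10 (Cy3) and 14.0 (Cy5) in total and 275 and 153 in IP RNA in miR-155 cells. All 4 IP channels of both probes were well above background, but the total RNA was detected on probe 1 in 1 of 2 channels in EV and 0 of 2 in miR-155 cells, and on probe 2 in no channel. The total level has therefore only a bound, the signal of the dimmest probe well above background, after a normexp background correction with loess and Aquantile normalization. On probe 1 the IP signal was at least 1.97-fold higher than total in miR-155 cells, beside a ratio of 23.1 as measured. The ratio in EV cells, with total RNA detected in 1 of 2 labellings, was 26.5. On probe 2 the IP signal was at least 1.54-fold higher in EV and at least 1.68-fold higher in miR-155 cells, beside 22.1 and 18.2 as measured. None of these 3 bounds reaches 2, but the normexp correction added an offset of 50 to every signal. Such an offset draws the ratios of dim probes toward 1, and the ratios as measured rest on total signals under background. With normexp and loess, probe 1 was not kept and probe 2 had log2 IP/T ratios of 0.63 in EV and 0.75 in miR-155 cells, under the threshold.

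RAB34, a GTPase of lysosome positioning, had signals of 230.2 (Cy3) and 147 (Cy5) in total and 319 and 505 in IP RNA in EV and of 252 (Cy3) and 257 (Cy5) in total and 384 and 349 in IP RNA in miR-155 cells. Its ratio was above 2 in EV cells alone, at 2.18, and 1.44 in miR-155 cells. With normexp background correction and quantile normalization its log2 IP/T in EV cells turned from 1.13 to -0.020. RAB7A, which drives fusion with lysosomes, was the median probe in EV cells, at 0.898 and 0.922. RAB9A, of the route from late endosomes to the Golgi apparatus, was at 0.790 and 0.804. RAB24, linked to autophagy, was lowest, at 0.597 and 0.624 on probe 2 (A_24_P52111) and at 0.654 and 0.680 on probe 1 (A_23_P61823). RAB9A and both RAB24 probes were below 1 on all 4 arrays.

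The RAB genes of exocytosis and polarised transport had 8 kept probes of 6 genes, and 0 of them reached an IP/T ratio of 2 in either vector. RAB27A, which docks secretory lysosomes and is lost in Griscelli syndrome, had the lowest ratio in EV cells of all RAB probes. Its signals were 327 (Cy3) and 478 (Cy5) in total and 139 and 224 in IP RNA in EV and 279 (Cy3) and 317 (Cy5) in total and 145 and 159 in IP RNA in miR-155 cells. Total channels were above IP channels throughout, and the ratio was 0.446 in EV (0.687 and 0.290 in the dye orientations) and 0.510 in miR-155 cells (0.571 and 0.456). RAB26, of secretory granules, had signals of 179 (Cy3) and 89.9 (Cy5) in total and 96.5 and 103 in IP RNA in EV and of 134 (Cy3) and 117 (Cy5) in total and 48.9 and 67.2 in IP RNA in miR-155 cells. Its ratio was 0.786 in EV (0.576 and 1.07), where the channels overlapped, and 0.458 in miR-155 cells (0.503 and 0.417), where total lay above IP, with 5 of 8 channels detected. The paralogues RAB8A and RAB8B, which take vesicles to the plasma membrane and the cilium, stood near 1. RAB8A had ratios of 1.33 and 0.922. RAB8B had 1.23 and 1.32 on probe 1 (A_23_P317465) and 0.920 and 1.02 on probe 2 (A_23_P37535), the latter the median probe of the group in EV cells. RAB10, which moves glucose transporter vesicles, had ratios from 0.802 to 1.17 over both probes and both vectors.

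Of the RAB genes of lysosome-related organelles and the cilium, 4 probes of 3 genes were kept, and RAB23, an inhibitor of Hedgehog signalling at the cilium, had a ratio of 2 or more in both vectors. Its signals were 177 (Cy3) and 108 (Cy5) in total and 1085 and 971 in IP RNA in EV and 209 (Cy3) and 192 (Cy5) in total and 1035 and 925 in IP RNA in miR-155 cells. Every IP channel was far above every total channel, and 1 of 2 EV total channels was detected. The IP/T ratio was 7.42 in EV (5.48 and 10.0) and 4.89 in miR-155 cells (4.42 and 5.40). Its log2 IP/T of 2.89 in EV cells was 1.35 with normexp and quantile normalization and 0.97 with normexp and loess, the latter just under the threshold. In miR-155 cells these values were 2.29, 1.23 and 1.38. RAB28, of the photoreceptor cilium, had ratios of 1.29 and 1.66 on probe 1 (A_23_P125147), the median probe in EV cells. RAB29, which recruits the kinase LRRK2 to membranes, was lowest, at 0.914 and 0.951.

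The ratio of the IP/T ratios, miR-155/EV, asks which transcripts were bound more by Ago2 once miR-155 was present. A high or a low ratio was seen for 7 RAB probes, and 5 of these 7 were past the threshold in 1 dye orientation only. A miR-155/EV ratio of 1.5 or more was seen for 3 of 48 RAB probes (6.25%), of RAB33A, RAB21 and RAB5C, beside 4.37% of all kept probes. A ratio of at most 1/1.5 was seen for 4 (8.33%), of RAB40A, RAB26, RAB23 and RAB34, beside 4.38%. Both shares lay above the background but rest on 3 and 4 probes, and the difference was not tested. Of all kept probes with such ratios, 343 of 678 high and 244 of 680 low ones were past the threshold in both dye orientations. The median over the RAB probes was 1.06, beside 0.983 over all kept probes, but 0.964 on arrays with total RNA in Cy3 and 1.07 on arrays with IP RNA in Cy3. The orientations gave r = 0.31 across the 48 probes. On the same side of 1 in both lay 30 of them, a count not taken over all kept probes.

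RAB33A had the highest ratio, 1.80, made of 3.26 and 0.989 in the dye orientations. RAB21 probe 2 was at 1.76, with 1.95 and 1.58, both past 1.5. Its signals were 80.8 (Cy3) and 72.4 (Cy5) in total and 54.8 and 37.7 in IP RNA in EV and 89.5 (Cy3) and 73.7 (Cy5) in total and 87.9 and 81.5 in IP RNA in miR-155 cells, so the lower level was that of EV IP RNA, and RAB21 probe 1, detected in all 8 channels, was at 1.04. RAB5C probe 1 was at 1.60, with 2.32 and 1.1, while RAB5C probe 2 was at 1.11. For both RAB21 and RAB5C, the other probe of the gene was thus not past 1.5.

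On the low side RAB40A, of a Rab group that joins a ubiquitin ligase, was the farthest, at 0.489 (0.432 and 0.554 in the dye orientations). Its signals were 83.1 (Cy3) and 79.9 (Cy5) in total and 90.0 and 94.2 in IP RNA in EV and 81.8 (Cy3) and 101 (Cy5) in total and 62.8 and 40.0 in IP RNA in miR-155 cells. The IP channels of miR-155 cells stood below the other 6, and 5 of 8 channels were detected. RAB26 was at 0.583 (0.874 and 0.389), RAB23 at 0.659 (0.807 and 0.539) and RAB34 at 0.659 (0.632 and 0.688). RAB40A was past 1/1.5 in both orientations, and the other 3 in 1. The log2 miR-155/EV of RAB40A, -1.03 as reported, was -0.13 with normexp and quantile normalization and -0.17 with normexp and loess. It was not among the probes kept with no quantile normalization, with the deposited values or with detection in all 8 channels. RAB21 probe 2, RAB26 and RAB33A were also not among the deposited values. None of the 7 probes past 1.5 or 1/1.5 passed with normexp under either normalization. How many of all kept probes lost such a call is not given here. Under normexp background correction with loess, log2 miR-155/EV turned to 0.41 for RAB23 and to 0.28 for RAB34, and RAB33A was at -0.0098. RAB1A, RAB18 and RAB22A, whose IP/T ratios of at least 2 in both vectors held under every alternative computed on probes, had miR-155/EV ratios from 1.03 to 1.19 on those probes.

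**Figure D4:**
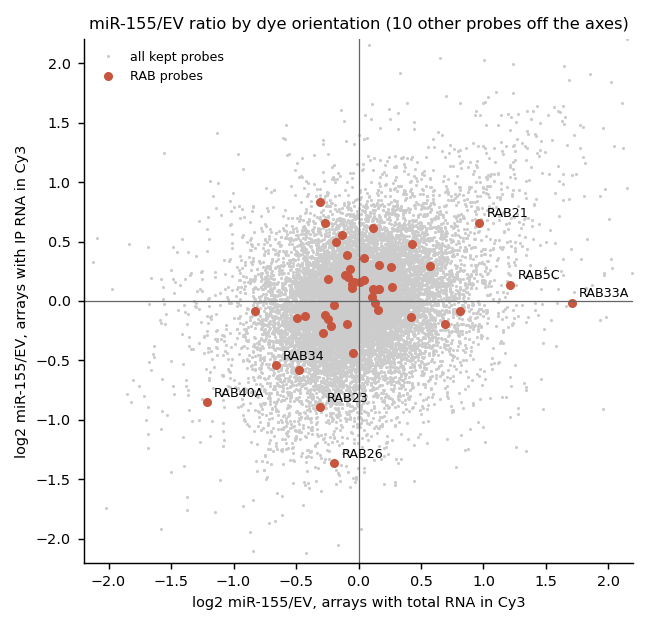
Log2 miR-155/EV ratio on arrays with total RNA in Cy3 (x axis) and on arrays with IP RNA in Cy3 (y axis) for the 48 RAB probes (red) and all kept probes (grey, 10 of which lie off the axes). The 7 named probes are those past 1.5 in either direction in the mean, and RAB21 and RAB40A lie past it in both orientations.

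Levels in total RNA were close between the vectors. No RAB probe was at least 1.5-fold higher in miR-155 total RNA, as 5.37% of all kept probes were. Only 1 was at most 1/1.5 of the EV level, beside 4.12% of all kept probes. This was RAB1B, at a ratio of 0.607, or 0.854 with Cy3 and 0.432 with Cy5. The RAB probe with the highest ratio was RAB23, at 1.45, and the median over the RAB probes was 0.975, beside 1.01 over all kept probes. In IP RNA the median ratio of miR-155 to EV cells was 0.965 over the RAB probes and 1.00 over all kept probes, and it reached 1.86 for RAB21 probe 2. These are ratios of levels, while miR-155/EV is a ratio of IP/T ratios.

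Proteins that handle Rab GTPases and other small GTPases were counted in the same way, with no test of any difference between lists. An IP/T ratio of 2 or more in both vectors was seen for 2 of 13 kept probes of chaperones, prenylation factors and other Rab-handling proteins, 3 of 40 of exchange factors, 6 of 31 of GTPase-activating proteins and 7 of 40 of effectors, against 11 of 48 RAB probes and 1585 of all 15529. The counts were 5 of 28 for the ARF and ARL family and 1 of 20 for the RAS family. In miR-155 cells, with or without a call in EV cells, 9 of 31 probes of GTPase-activating proteins reached 2, beside 12 of 48 RAB probes. The probes named next are among the 3 highest and the 3 lowest of each list by the mean log2 IP/T of both vectors. Among handling proteins the highest probes were those of YIPF5 (2 probes) and CHM, the Rab escort protein, from 1.93 to 3.39 in EV cells, and the lowest those of RABIF (2 probes) and CHML, from 0.445 to 0.546. Among exchange factors TRAPPC3 was at 0.296, HPS1 at 0.469 and RABGEF1 at 0.480 in EV cells, and DENND1B at 2.08, DENND6A at 2.53 and TRAPPC1 at 2.63. The values of HPS1 and RABGEF1 are those of their lowest kept probes, the latter detected in 5 channels. In EV cells their other kept probes were at 0.572 and 0.951 for HPS1 and at 0.625, 0.708 and 1.72 for RABGEF1. Of the GTPase-activating proteins, which switch Rabs off, 1 probe of TBC1D20, which acts on RAB1 and RAB18, had IP/T ratios of 6.94 in EV and 9.78 in miR-155 cells. The other kept TBC1D20 probe, detected in 6 channels, had 0.907 and 0.796. USP6NL, which acts on RAB5, had 8.80 and 7.43 on 1 probe and 1.45 and 1.57 on its other kept probe, detected in 6 channels. TBC1D10C had 5.45 and 6.41. On the low side, TBC1D1 had 2 probes at 0.275 and 0.617 in EV cells, and TBC1D9B was at 0.580 on 1 probe and 0.751 on its other. Among effectors PLEKHM1, of lysosome fusion, had 9.65 and 8.81, and both probes of RAB11FIP2, a RAB11 partner, had 4.50 and 6.14 in EV cells. OPTN at 0.422 and RABEP1 at 0.491 in EV cells were low, as was 1 probe of APPL1, a RAB5 partner. This probe was not well above background in either channel of EV IP RNA and was at 0.496 in miR-155 cells. The other APPL1 probe, detected in all 8 channels, was at 0.686 in EV and 0.762 in miR-155 cells.

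In the RAS family, RHEBL1, a relative of the mTORC1 activator RHEB, had the highest IP/T ratio, 14.2 in EV and 16.4 in miR-155 cells. The RHEBL1 probe was detected in 7 of 8 channels, and in 1 of 2 channels of EV total RNA. RHEB was at 1.53 in EV and 3.81 in miR-155 cells, and RAP2C at 1.73 and 2.02 on 1 probe. The other kept RAP2C probe, detected in all 8 channels, was at 1.57 and 1.87. In the ARF and ARL family, ARL3 was at 3.40 in EV and 4.94 in miR-155 cells. Among the lowest of this family by the mean over both vectors, ARL16 was at 0.485 in EV cells and ARL11 at 0.716. ARF1 was at 0.349 on 1 probe, detected in 7 channels, and at 1.05 on its other kept probe, detected in all 8. Among the lowest of the RAS family, HRAS was at 0.513 and RRAS at 0.876 in EV cells.

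The remaining RAB probes were not kept. Of these, 28 were detected in no channel, 4 in 1 to 3 channels, and 12 were detected in at least 4 but differed by over 2-fold between the labellings of a sample. Of the 25 RAB genes left without a kept probe, 20 were detected in no channel on any probe. These were RAB3B, RAB3C, RAB3D, RAB13, RAB27B and RAB37 of exocytosis, RAB4A, RAB15 and RAB25 of recycling, RAB17 and RAB31 of endocytosis, RAB6B, RAB30, RAB39A and RAB42 of the Golgi group, RAB7B, RAB20 and RAB36 of late endosomes, and RAB32 and RAB38 of melanosomes and other lysosome-related organelles. The other 5 were detected in part. RAB40B was detected in 7 channels, RAB40C in 6, RAB11B in 5, RAB3A in 4 and RAB9B in 3. A probe that is not detected sets no level for its gene. The genes kept and not kept included close pairs: RAB27A and RAB27B, RAB4B and RAB4A, and RAB6A and RAB6B, with the first of each kept and the second detected in no channel.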

How the data were processed

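Total and Ago2-IP RNA of cells with each vector was measured on 4 two-colour arrays. The deposited channel files hold spot intensities (intensity, linear scale) that the authors read out by Feature Extraction 10.5.1.1, background-subtracted and dye-normalized within arrays. The authors also deposited log2 values of 14453 probes, quantile-normalized over the channels and filtered.

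Here control spots were left out, spots of a probe were averaged, signals under 1 were set to 1, and log2 signals were quantile-normalized over the 8 channels. A probe counted as detected in a channel where its signal was positive, significant and well above background. It was kept with 4 or more such channels and labellings that differed by no more than 2-fold in any sample. Labellings were averaged on the log2 scale. IP signal was divided by total signal (IP/T), and IP/T in miR-155-ST486 by IP/T in EV-ST486 cells (miR-155/EV). Of the deposited log2 values, 99.9% lay within 0.05 of those made here. Symbols came from the RefSeq accession of a probe, which matched 23958 of 41000 probes. For the normexp alternatives (offset 50), local backgrounds above 500, on 33 spots, were set to the channel's median.

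Named are RAB genes with a kept probe at an IP/T ratio of at least 2 or at most 0.5, or a miR-155/EV ratio past 1.5 or 1/1.5, or with kept probes over 2-fold apart in IP/T, and the lowest, median and highest probe of each role group by IP/T in EV-ST486 cells (the lower of the middle pair for an even number). Further named are the 3 highest and lowest probes, by mean log2 IP/T of both vectors, of each list of regulators and other small GTPases, and the members not kept. Some genes and a list that this rule covers are not reported here. The members and lists were chosen with earlier results of these data known. No test was run because each condition has n = 1, and the number of arrays limits the precision. The procedure was checked on simulated data with 200 planted changes. These were planted in bright probes only, with every channel set as detected, so the check does not cover dim probes. Of the alternatives 11 were run as laid down and 1 (without RAB12) was added after seeing the data. The software was R 4.3.3 with limma 3.58.1, and Python 3.11.15 with pandas 2.3.3, numpy 2.4.6 and matplotlib 3.10.9.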

Additional observations from a re-analysis of the deposited data

Results flagged for a closer look

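For 3 RAB genes the IP/T ratio lay on one side of 1 on both arrays of EV cells and on the other side on both arrays of miR-155 cells. They are 3 of the 48 RAB probes (6.25%), where 502 of all kept probes (3.23%) met the same rule. These differences were not tested, since each vector has n = 1, and each vector lies on its own slide. RAB2A, of traffic between the Golgi apparatus and the endoplasmic reticulum, had ratios of 0.812 and 0.967 in EV and of 1.09 and 1.35 in miR-155 cells, a miR-155/EV ratio of 1.37, with all 8 channels detected. RAB8A, of exocytosis, had 1.33 and 1.33 in EV and 0.959 and 0.886 in miR-155 cells, a miR-155/EV ratio of 0.693, also with all 8 channels detected. RAB40A had 1.13 and 1.13 in EV and 0.489 and 0.625 in miR-155 cells, a miR-155/EV ratio of 0.489, with 5 channels detected.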

How the results depend on the processing

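The median log2 IP/T of the RAB probes stayed above 0 under all alternatives run, and above the median of all kept probes, by 0.096 to 0.48 in EV (0.43 as reported) and by 0.079 to 0.61 in miR-155 cells (0.54 as reported). Its size moved. In EV cells it was 0.27 as reported, 0.13 with normexp and quantile normalization, 0.12 with normexp, loess and Aquantile, 0.34 with no quantile normalization, 0.19 over probes detected in all 8 channels, 0.024 with no filter on detection, 0.088 over genes in place of probes, and 0.20 to 0.28 with 1 dye orientation left out. In miR-155 cells it was 0.36 as reported, 0.15 and 0.20 with these normexp settings, 0.25 over probes detected in all 8 channels, 0.060 with no filter on detection and 0.20 over genes. The median log2 miR-155/EV was 0.078 and turned to -0.053 when the arrays with IP RNA in Cy3 were left out, against 0.10 without the others, so its direction rests on that orientation.

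The count of RAB probes with an IP/T ratio of 2 or more in EV cells, 14 as reported, was 8 with normexp and quantile normalization, 5 with loess, 9 over probes detected in all 8 channels and 8 over genes. In miR-155 cells 12 became 7 with loess. Of the probes called in both vectors, 5 (3 of RAB1A and 1 each of RAB18 and RAB22A) were kept and past 2 in both vectors under every alternative computed on probes. The count at most 0.5 in EV cells, 2, was 0 with either normexp setting, 1 with no quantile normalization, with the deposited values, over probes detected in all 8 channels and with arithmetic means, and 1 to 4 with an orientation left out. In miR-155 cells 1 became 0 in these settings other than arithmetic means, and 2 with either orientation left out. A miR-155/EV ratio of 1.5 or more, seen for 3 probes, was seen for 0 with normexp and quantile normalization, 1 with loess, with the deposited values, over probes detected in all 8 channels or over genes, and 4 to 5 with an orientation left out. With loess, 0 of the 3 probes reported were past it. A ratio of at most 1/1.5, seen for 4, was seen for 0 with either normexp setting and over probes detected in all 8 channels, 1 with no quantile normalization, 2 with the deposited values and 8 with no filter on dye differences. The cause was not tested.

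Of single probes, the log2 miR-155/EV of RAB23 reversed to 0.41 with loess. That of RAB33A reversed to -0.012 with normexp and quantile normalization, -0.0098 with loess and -0.016 without the arrays with total RNA in Cy3, against 1.71 without those with IP RNA in Cy3. RAB34 reversed to 0.23 and 0.28 with the normexp settings, and its log2 IP/T in EV cells to -0.020 with the first. Of the other values of named probes 84 moved by more than the difference between orientations and 509 did not. Members by a gene name column could not be run, because the arrays as used here give accessions only. No paired analysis was possible because the replicate numbers mark dye labellings of 1 RNA sample and no test was run. The dim probes, detected in part of the channels, limit what can be said of RAB21 probe 2, RAB26, RAB33A and RAB40A.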
